A study of Mus musculus with 12 samples.

Results

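The hippocampal transcriptome of 15-month-old C57BL/6 mice was compared between 3 control mice (Ctrl) and 3 mice of the *Akkermansia muciniphila* group (Akk), with 1 RNA-seq library per mouse. All rows of the hippocampus table were taken, which gave 284 genes of the 8222 genes listed for either tissue and 6 of the 12 samples of the series. Per the labels, the Ctrl mice were normal and the Akk mice received a membrane protein of the bacterium, for 8 weeks by the sample characteristics and for 6 weeks by the protocol. The methods of the study instead describe the live bacterium given after antibiotics, with a vehicle for the controls, and state that the RNA came from mice in which colonization by *A. muciniphila* had failed. No engineered allele is named for either group. The agent, its duration and the state of colonization are therefore not settled for the Akk group.

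Values are FPKM, a fragment count divided by transcript length and by the mapped fragments of the library. FPKM can be compared between genes per length, but the depth behind each value is unknown. The table is a selection, with 275 mRNA genes, 8 pseudogenes and 1 lncRNA gene. Most of these genes were weakly expressed, with a median of 0.356 FPKM for the mean over the 6 libraries. Only 10 genes had a mean of at least 10 FPKM. None of 20 listed markers of hippocampal principal neurons and none of 11 of astrocytes and oligodendrocytes was among the 284 genes, so the tissue label could not be checked from its own defining markers.

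The hippocampus is the cortical structure needed for spatial and recognition memory. It lies beside the ventricles, where the choroid plexus, a folded epithelium, secretes cerebrospinal fluid. The choroid plexus epithelium is known for very high transthyretin (Ttr) expression and for ion and water transporters, and prolactin is the secreted hormone of the lactotroph cells of the anterior pituitary. The thalamus lies beneath the dorsal hippocampus, and the septum and the striatum lie in front of it. Markers of these tissues are thus informative about what each library holds.

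Libraries differed mainly in choroid plexus transcripts and in the transcript of 1 pituitary hormone, prolactin, and this difference did not follow the groups. The summed FPKM of the 284 genes was 7525 in Ctrl 1, 331 in Ctrl 2 and 239 in Ctrl 3. In the Akk group the sum was 274 in Akk 1, 2950 in Akk 2 and 2607 in Akk 3. The 3 libraries with the large sums were thus 1 Ctrl and 2 Akk libraries. Ttr alone held 75.9% of the sum in Ctrl 1 and 68.9% in Akk 2, whereas prolactin (Prl) held 86.6% in Akk 3. In the other 3 libraries, the gene with the highest value was Enpp2, which encodes autotaxin, the enzyme that makes lysophosphatidic acid, with 18.1% to 23.8% of the sum. After removal of the listed choroid plexus markers, Enpp2 and Prl, the remaining 253 genes summed to 92.03 to 225.6 FPKM per library.

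**Figure D1:**
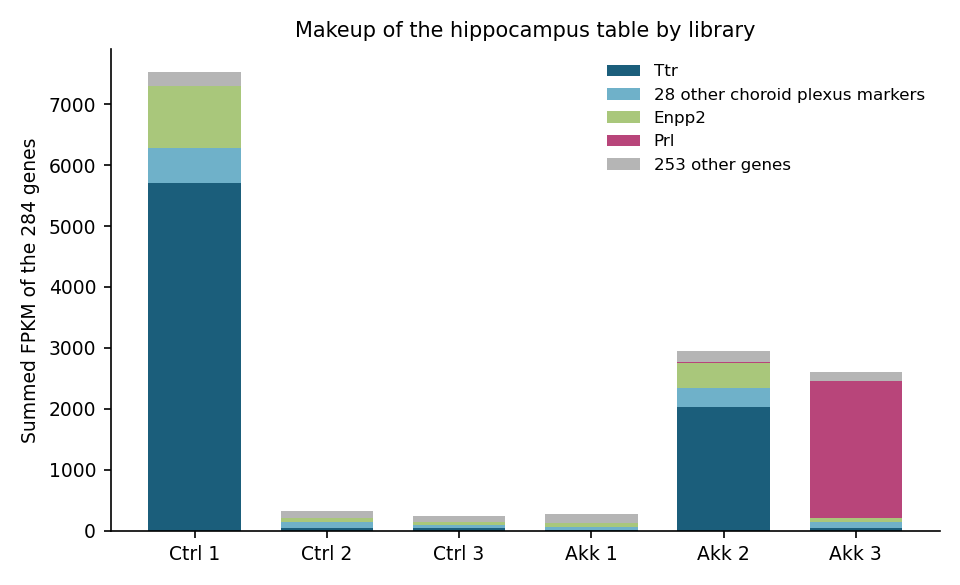
Summed FPKM of the 284 hippocampal genes in each library (stacked bars, linear axis from 0), split into Ttr, 28 other choroid plexus markers, Enpp2, Prl and the 253 other genes. Ttr fills most of the Ctrl 1 and Akk 2 bars and Prl most of the Akk 3 bar, while Ctrl 2, Ctrl 3 and Akk 1 stay below 331 FPKM.

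Of 50 listed markers of the choroid plexus epithelium, 29 were in the table. In all 29, Ctrl 1 and Akk 2 were both above the other 4 libraries and Ctrl 1 was the highest library. This order was seen in 90 of the 284 genes (31.7%), of which 61 are outside the list. The lower of Ctrl 1 and Akk 2 exceeded the highest of the other 4 libraries by a median ratio of 6.15, with a range from 1.06 to 41.4. The level in Ctrl 1 was 1.35 to 2.81 times that in Akk 2, with a median of 1.62. Between 66.37 and 145.3 FPKM of choroid plexus markers were still summed in Ctrl 2, Ctrl 3, Akk 1 and Akk 3, so no library was free of these transcripts.

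Ttr, the carrier of thyroid hormone and retinol in cerebrospinal fluid, had 5709.04, 49.05 and 44.03 FPKM in Ctrl 1, 2 and 3. In Akk 1, 2 and 3 it had 18.56, 2032.76 and 39.27 FPKM. A single library in each group was therefore far above its own group, and the groups overlapped. The same shape was found in genes of other roles. Folr1, the folate receptor of this epithelium, had 52.27, 1.65 and 1.27 FPKM in the Ctrl libraries and 1.82, 19.28 and 1.34 FPKM in the Akk libraries. For Kl, the anti-ageing protein klotho, the values were 30.67, 3.57 and 3.42 FPKM in Ctrl against 3.14, 19.82 and 3.2 FPKM in Akk. Otx2, a homeodomain transcription factor of the choroid plexus, had 13.51, 0.94 and 1.2 FPKM in Ctrl and 1.35, 8.61 and 1.71 FPKM in Akk. Klotho and Otx2 thus ordered Ctrl 1 and Akk 2 above the rest, as Ttr did. The water channel gene Aqp1 was at 8.29, 0.26 and 0.35 FPKM in Ctrl and at 0.17, 5.76 and 0.21 FPKM in Akk. The bicarbonate transporter gene Slc4a5 was at 9.17, 0.25 and 0.14 FPKM in Ctrl and at 0.04, 6.08 and 0.19 FPKM in Akk. Prlr, the prolactin receptor, was at 15.28, 1.16 and 1 FPKM in Ctrl and at 1.53, 8.55 and 2.18 FPKM in Akk, and Akk 3, the library with high Prl, was not among its 2 highest libraries.

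**Figure D2:**
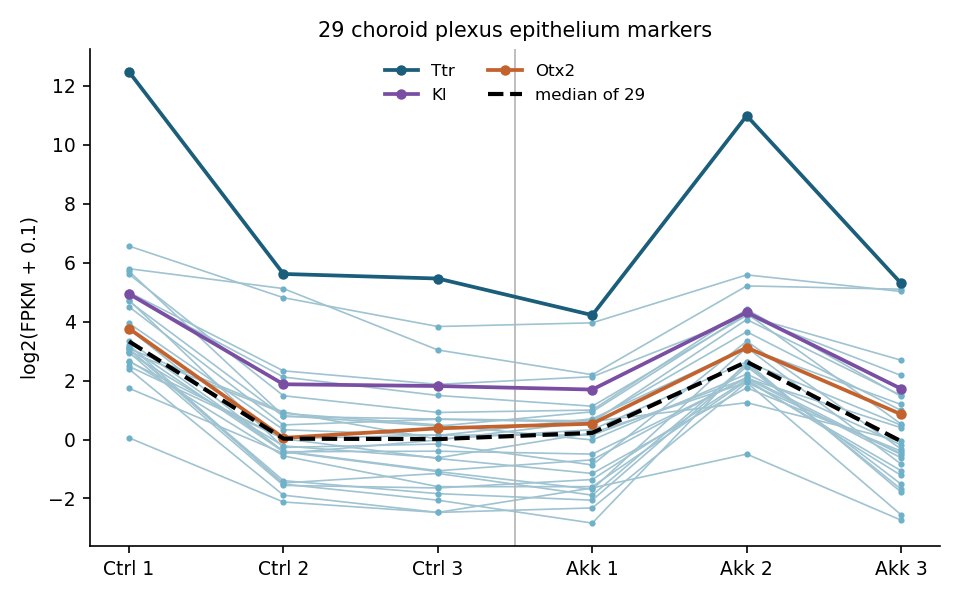
Expression of 29 choroid plexus epithelium markers in each library on the log2(FPKM + 0.1) scale, 1 thin line per gene, with Ttr, Kl and Otx2 in colour and the median of the 29 genes dashed. All 29 lines are highest in Ctrl 1, and Akk 2 is above the remaining 4 libraries in each.

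Members of the list differed in how far they stood out. Igf2, a growth factor made by the choroid plexus and by the meninges, had 55.51, 34.74 and 8.12 FPKM in Ctrl and 4.49, 36.99 and 34.22 FPKM in Akk. It was thus also high in Ctrl 2 and Akk 3, where Ttr was low. Its binding protein gene Igfbp2 had 94.64, 28.02 and 14.17 FPKM in Ctrl and 15.47, 47.99 and 32.43 FPKM in Akk. None of 24 listed markers of meninges and fibroblasts, of 25 of ependyma and motile cilia, of 12 of endothelium and vessel wall and of 10 of red blood cells was in the table. The contribution of these tissues to single libraries was therefore not measured.

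Outside the list, 34 genes also had a lower value of Ctrl 1 and Akk 2 at least 2 times the highest of the other 4 libraries, against 26 of the 29 listed genes. Enpp2 was one of them, with 1024.28, 59.87 and 52.68 FPKM in Ctrl and 65.28, 417.62 and 60.19 FPKM in Akk. Slc16a8, a lactate transporter of the choroid plexus and retinal pigment epithelium, had 5.22, 0.18 and 0.16 FPKM in Ctrl and 0.11, 3.17 and 0.27 FPKM in Akk. Others were the epithelial cadherin gene Cdh3 (1.1 FPKM in Ctrl 1, 0.42 FPKM in Akk 2 and at most 0.05 FPKM elsewhere) and the splicing regulator gene Rbm47 (1.81 FPKM in Ctrl 1, 1.14 FPKM in Akk 2 and at most 0.28 FPKM elsewhere). Slc16a8, Cdh3 and Rbm47 were chosen after their values were seen.

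Promoters of the choroid plexus markers were examined for the letters bound by OTX factors, TAATCC, on both strands. The windows, from RefSeq on GRCm38.p6, ran from 250 bases before to 50 bases after each start. TAATCC was in 7.1% of 32851 promoters, in 9.1% of the 264 promoters of the table and in 5 of 34 promoters of the choroid plexus markers (14.7%). The 34 promoters belong to 23 of the 29 markers in the table, and no promoter of Ttr was among them. The 5 promoters with the letters belong to Abca4, Ace, Igf2, Mfrp and Otx2. A promoter of the retinoid transporter gene Abca4 and a promoter of Otx2 itself are shown because both genes are members of the list and hold the letters. They lie at chr3:122044210-122044509 on the plus strand and at chr14:48665060-48665359 on the minus strand, and capitals mark TAATCC as read on the other strand.
Abca4: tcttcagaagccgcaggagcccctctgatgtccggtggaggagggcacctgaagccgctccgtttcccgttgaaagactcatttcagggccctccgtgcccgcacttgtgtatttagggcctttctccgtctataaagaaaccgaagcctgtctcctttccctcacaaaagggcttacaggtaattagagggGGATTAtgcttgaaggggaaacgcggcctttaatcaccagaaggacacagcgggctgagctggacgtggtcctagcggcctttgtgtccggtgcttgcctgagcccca
Otx2: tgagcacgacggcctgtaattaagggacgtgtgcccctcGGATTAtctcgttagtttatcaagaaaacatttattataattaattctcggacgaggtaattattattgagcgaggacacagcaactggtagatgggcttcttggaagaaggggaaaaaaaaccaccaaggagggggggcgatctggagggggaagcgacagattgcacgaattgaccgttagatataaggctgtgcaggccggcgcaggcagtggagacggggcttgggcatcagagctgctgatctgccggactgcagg

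The third library that stood apart, Akk 3, was defined by a pituitary hormone. Of 16 listed genes of the anterior and intermediate pituitary, 3 were in the table. Prl was at 2.08, 3.36 and 0.82 FPKM in Ctrl 1, 2 and 3, at 0.63 and 5.49 FPKM in Akk 1 and 2, and at 2257.54 FPKM in Akk 3. Growth hormone (Gh) had 0.63, 0.64 and 0.07 FPKM in Ctrl and 0.16, 1.27 and 3.06 FPKM in Akk. Pomc, the precursor of corticotropin and melanocortins, had 0.75, 0.21 and 0.57 FPKM in Ctrl and 0.76, 0.84 and 1.74 FPKM in Akk. Akk 3 was the highest library for all 3 genes, by a wide margin for Prl and by a small one for Gh and Pomc. The log2 difference of Prl between groups was 3.46 (standard error, SE, 2.97, limma adjusted p = 0.755), and 0.08 without Akk 3, so that 1 mouse carried the group difference. Listed members of the prolactin pathway other than Prl and Prlr were Socs1, an inhibitor of cytokine receptor signalling, and Elf5. Elf5 is a transcription factor induced by prolactin in the mammary gland. Elf5 had 0.36, 0.26 and 0.27 FPKM in Ctrl and 0.67, 0.37 and 0.69 FPKM in Akk, whereas Socs1 had 0.87, 1 and 0.54 FPKM in Ctrl and 0.91, 0.71 and 0.6 FPKM in Akk. Neither gene set Akk 3 apart from Akk 1.

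The promoter of Prl at chr13:27057320-27057619 on the plus strand is shown because this gene alone made up most of Akk 3. The letters TATNCAT, taken from sites of the pituitary factor PIT1 and searched on both strands, occurred 2 times in it (capitals) and were in 8.8% of 32851 promoters.
Prl: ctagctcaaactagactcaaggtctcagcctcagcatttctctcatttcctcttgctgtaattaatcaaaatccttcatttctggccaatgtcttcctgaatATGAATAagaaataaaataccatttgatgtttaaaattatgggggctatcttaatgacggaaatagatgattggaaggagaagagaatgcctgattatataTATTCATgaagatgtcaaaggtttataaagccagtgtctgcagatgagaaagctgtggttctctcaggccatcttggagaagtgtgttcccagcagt

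Over the whole table, libraries of 1 group were about as far apart as libraries of different groups. The median absolute log2 difference per gene was 0.47 to 0.94 between Ctrl libraries, 0.49 to 0.74 between Akk libraries and 0.49 to 1.04 between a Ctrl and an Akk library. Ctrl 1 and Akk 2, from different groups, differed by 0.66, and each was farther from all libraries of its own group. Without the 29 choroid plexus markers, the ranges were 0.49 to 0.85, 0.49 to 0.68 and 0.49 to 0.89.

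To ask which genes separated the groups, log2(FPKM + 0.1) was fitted with limma, p-values were adjusted by Benjamini-Hochberg over all 284 genes, and a gene was called if it changed at least 1.5-fold with an adjusted p no higher than 0.05. On this scale changes of low genes are understated. The adjusted p-values and shares hold within the 284 genes that the authors selected. If that selection used the group difference, they are not calibrated, and this was not tested. The blood part of the series lists 8003 genes. For blood, the paper reports the same number of differentially expressed genes. For the hippocampus, the paper reports more such genes than are listed here, with more of them higher than lower in Akk. The signs given below lean the other way. Gm14434 and Il4i1 were higher in Akk (0.704% of the genes tested) and Akr1cl was lower (0.352%). At an unadjusted p under 0.05 there were 19 higher and 13 lower genes. The median log2 fold change of the table was -0.11, with 114 positive and 167 negative values. None of the 29 choroid plexus markers was called or had an unadjusted p under 0.05. Their median log2 fold change was -0.32, with 25 negative and 4 positive values, and 28 of the 29 changed sign under at least 1 alternative setting.

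**Figure D3:**
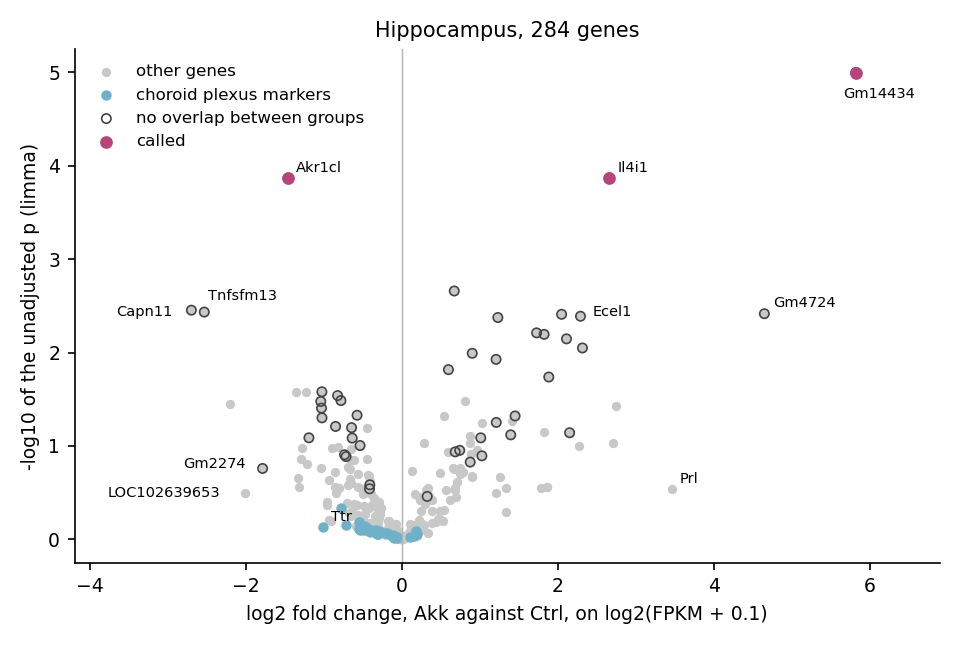
Log2 fold change of Akk against Ctrl (x axis, on log2(FPKM + 0.1)) and -log10 of the unadjusted limma p (y axis) for the 284 genes, with called genes, choroid plexus markers and genes without overlap between groups marked. Gm14434, Il4i1 and Akr1cl lie above the rest, and the choroid plexus markers lie at the bottom of the plot.

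Il4i1 encodes a secreted oxidase of aromatic amino acids, tryptophan among them, made mainly by antigen-presenting cells. It was listed at 0 in each Ctrl library and at 0.74, 0.42 and 0.48 FPKM in Akk 1, 2 and 3, with an adjusted p of 0.0129 from limma. The gene lies at chr7:44836288-44840809 on GRCm38, and no transcript of another gene was near-identical to it. Akr1cl, an aldo-keto reductase gene at chr1:65013078-65032759, was at 0.21, 0.17 and 0.15 FPKM in Ctrl and was listed at 0 in every Akk library, with an adjusted p of 0.0129 from limma. Both genes were below 1 FPKM in every library. Both calls were lost with a pseudocount of 1, after median centring of the libraries and with quantile normalization. Il4i1 was called in 6 and Akr1cl in 7 of the 17 settings that could be fitted for them, with adjusted p-values from 0.00451 to 0.223 for each.

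Gm14434 (NCBI gene 668039), a predicted zinc finger gene, had the smallest p. Its values were 0, 0.02 and 0 FPKM in Ctrl and 8.11, 4.31 and 5.9 FPKM in Akk. On the log2 scale the difference was 5.82 (SE 0.41, limma adjusted p = 0.00288), and it ranged from 2.79 with a pseudocount of 1 to 8.68 with a pseudocount of 0.01. It was called in 16 of 18 settings.

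This call was made with copies of 1 coding sequence listed as separate genes, and the sum of the copies was not called. Whether the split of reads among the copies made the difference was not tested. Gm14434 lies on chromosome 2 at chr2:176470369-176486853 of GRCm38, and 2 more genes of the table lie within 1 Mb of each other in the same cluster, Gm4724 at chr2:175418037-175704126 and LOC102639653, named Gm2007 by RefSeq, at chr2:175737837-175754980. In GENCODE transcripts on GRCm38, the coding sequences of the 3 genes were each 1497 bases long, and 0 of 1497 aligned bases differed in any pair. The translation holds 13 C2H2 zinc finger motifs, the DNA-binding repeat of this large family of transcription factors. For each of the 3 genes, transcripts of 10 other genes were near-identical (at least 95% identity over at least 50% of the length). A stretch of 120 coding bases, from coding position 688 to 807, is shown for each gene because it lets the identity be read directly. Capitals mark the codons of 1 linker between fingers.
Gm14434: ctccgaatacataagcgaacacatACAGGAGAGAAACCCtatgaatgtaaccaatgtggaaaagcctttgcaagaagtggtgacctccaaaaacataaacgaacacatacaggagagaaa
Gm4724: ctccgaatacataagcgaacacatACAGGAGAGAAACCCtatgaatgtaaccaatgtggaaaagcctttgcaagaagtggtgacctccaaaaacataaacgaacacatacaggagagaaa
LOC102639653: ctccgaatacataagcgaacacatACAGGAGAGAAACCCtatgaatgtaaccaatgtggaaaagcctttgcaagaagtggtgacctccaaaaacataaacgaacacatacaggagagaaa

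The 3 copies did not move together. Gm4724 had 0.02, 0.85 and 0 FPKM in Ctrl and 3.72, 9.85 and 4.64 FPKM in Akk, or 4.65 on the log2 scale (SE 1.00, limma adjusted p = 0.120). LOC102639653 had 10.45, 4.56 and 5.06 FPKM in Ctrl and 14.47, 2.54 and 0 FPKM in Akk, or -2.01 on the log2 scale (SE 1.83, limma adjusted p = 0.790). In the Ctrl libraries nearly all FPKM of the 3 copies was listed under LOC102639653. In the Akk libraries it was listed under all 3 copies, or, in Akk 3, under Gm14434 and Gm4724 alone. Summed, the copies had 10.47, 5.43 and 5.06 FPKM in Ctrl and 26.3, 16.7 and 10.54 FPKM in Akk. The groups still did not overlap, but by only 0.07 FPKM between Ctrl 1 and Akk 3. The log2 fold change of the sum was 1.32 (SE 0.68) and it was not called, with an adjusted p of 0.571 from limma over 282 rows and between 0.150 and 0.972 over all settings. With the copies summed, an alternative added after the values were seen, Il4i1 and Akr1cl were the only called genes. The genes of this sequence that are outside the table were not analysed here.

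**Figure D4:**
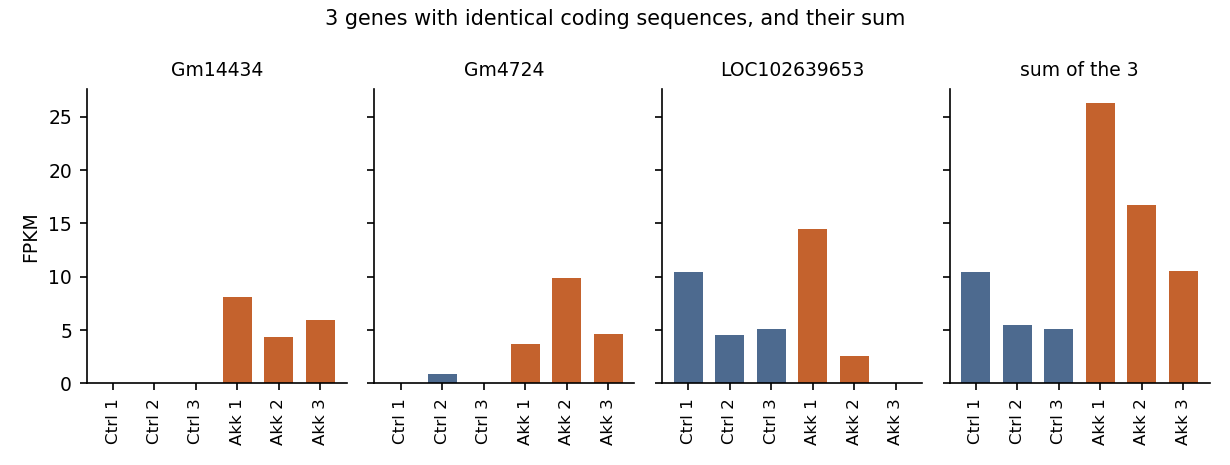
FPKM of Gm14434, Gm4724, LOC102639653 and their sum in each library (bars from 0, Ctrl blue and Akk orange). Gm14434 is near 0 in all Ctrl libraries, LOC102639653 is highest in Akk 1 and listed at 0 in Akk 3, and the sum runs from 5.06 to 10.47 FPKM in Ctrl and from 10.54 to 26.3 FPKM in Akk.

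For some other near-identical genes of the table, the groups overlapped once the copies were added up. Of 253 genes with a GENCODE transcript, 53 (20.9%) had a near-identical transcript of another gene. Among the 16 genes with an absolute log2 fold change of at least 2, 9 had one. Gm2274 had 1.84, 2.6 and 1.7 FPKM in Ctrl and 1.51, 1.32 and 0 FPKM in Akk, with every Akk value below every Ctrl value. Its near-identical neighbour Gm2260 had 2.01, 0 and 0.1 FPKM in Ctrl and 1.51, 1.32 and 1.99 FPKM in Akk. Their sum was 3.85, 2.6 and 1.8 FPKM in Ctrl and 3.02, 2.64 and 1.99 FPKM in Akk, so that the groups overlapped once the pair was added up. Gm13306 was listed at 0 in Ctrl 1 and Ctrl 3 and at 1.51 to 2.03 FPKM in Akk, but alone it already overlapped through Ctrl 2. It is near-identical to the chemokine gene Ccl27b. The sum of the pair was 1.05, 5.65 and 2.88 FPKM in Ctrl and 2.76, 5.43 and 4.16 FPKM in Akk, again with overlap. The sum of Gm3005 and Gm3500 averaged 1.18 FPKM in Ctrl and 1.92 FPKM in Akk. For that pair and for Speer4a with 5031410I06Rik and Gm21698, the summed values of the groups overlapped as well. By contrast, the sum of Tcte3 and Gm3448 had no overlap between groups.

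Without any overlap between groups, 25 genes were higher in Akk (8.8% of 284) and 20 were lower (7.04%). Of these, 5 higher and 3 lower genes had a mean of at least 1 FPKM. The higher genes included Gm14434, Gm4724, Ecel1 and the histone gene Hist1h2ap, and the 3 lower genes were Capn11, Ccl12 and Gm2274. For Hist1h2ap, transcripts of 12 other genes were near-identical, and they were not summed with it. A gene with Ctrl 1 and Akk 2 as its 2 highest libraries overlaps between groups by definition. The choroid plexus markers, which all had this order, could therefore not be among the genes without overlap.

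Among the genes higher in Akk without overlap were several of neurons outside the hippocampus, none of them called. Ecel1 (NCBI gene 13599, chr1:87142874-87157085), a neuronal membrane protein of the endothelin-converting enzyme family, had 1.39, 1.21 and 0.9 FPKM in Ctrl and 4.12, 6.21 and 8.48 FPKM in Akk. The change was 2.29 on the log2 scale (SE 0.50, limma adjusted p = 0.120), and it was not called in any of 18 settings. Ecel1 was low in all Ctrl libraries, Ctrl 1 included, and high in all Akk libraries, of which Akk 1 was the lowest.

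The same order was found for transcription factors and a transporter of these neurons. Of these, Slc10a4 and Prdm12 are in no marker list and were named for their small p, so their order is no independent result. Isl1, a LIM-homeodomain factor of striatal, cholinergic and hypothalamic neurons, had 0.33, 0.06 and 0.06 FPKM in Ctrl and 0.56, 1.28 and 1.39 FPKM in Akk (log2 fold change 2.32, SE 0.60, limma adjusted p = 0.181). Slc10a4, a vesicle protein of cholinergic and monoaminergic neurons, had 0.17, 0.17 and 0.4 FPKM in Ctrl and 0.79, 1.42 and 2.07 FPKM in Akk (log2 fold change 2.11, adjusted p = 0.156), and 1 other gene has a transcript near-identical to it. Prdm12, a regulator of hypothalamic and sensory neuron fate, had 0.46, 0.31 and 0.39 FPKM in Ctrl and 1.05, 1.72 and 1.85 FPKM in Akk (log2 fold change 1.73, adjusted p = 0.151). None of the 3 was called in any setting. Lmx1b, a factor of dopaminergic and serotonergic neurons, was very low, with 0.06, 0.01 and 0 FPKM in Ctrl and 0.11, 0.11 and 0.16 FPKM in Akk, and was chosen after its values were seen. In bulk tissue, more cells of a type and more RNA per cell cannot be told apart.

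**Figure D5:**
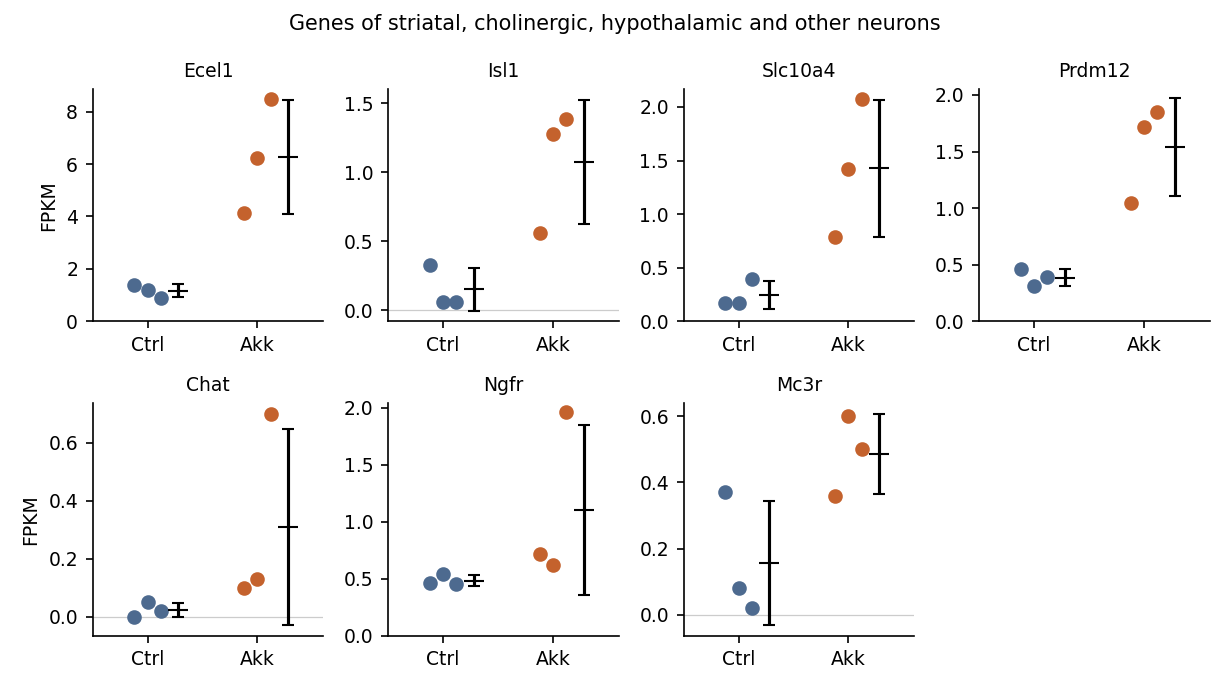
FPKM of 7 genes of striatal, cholinergic, hypothalamic and other neurons in the 3 Ctrl and 3 Akk libraries (points from left to right are libraries 1, 2 and 3 of a group), with mean and SD beside them. For Ecel1, Isl1, Slc10a4 and Prdm12 all Akk points lie above all Ctrl points, while for Chat and Ngfr the Akk mean is set mainly by Akk 3. Slc10a4 and Prdm12 were named for their small p.

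Cholinergic genes also had their highest values in Akk, chiefly in 1 library. Chat, the enzyme that makes acetylcholine, had 0, 0.05 and 0.02 FPKM in Ctrl and 0.1, 0.13 and 0.7 FPKM in Akk (log2 fold change 1.45, SE 0.58, limma adjusted p = 0.441), and the change was 0.82 once Akk 3 was left out. Ngfr, the p75 neurotrophin receptor of basal forebrain cholinergic neurons, had 0.46, 0.54 and 0.45 FPKM in Ctrl and 0.72, 0.62 and 1.96 FPKM in Akk, with a log2 fold change of 0.88 that became 0.40 without Akk 3. Akk 3 was thus the library with the most Prl, Chat, Ngfr and Ecel1. Mc3r, a melanocortin receptor of the hypothalamus, had 0.37, 0.08 and 0.02 FPKM in Ctrl and 0.36, 0.6 and 0.5 FPKM in Akk (log2 fold change 1.42, adjusted p = 0.462), with overlap through Ctrl 1.

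These genes stand for small parts of their lists. Of 8 markers of septum and cholinergic neurons, Chat, Ngfr and Ecel1 were present, summing to 1.37 to 1.85 FPKM in Ctrl and 4.94 to 11.14 FPKM in Akk. Of 16 hypothalamic markers only Mc3r was listed, and of 18 markers of thalamus and habenula only Shox2, with 0.08, 0.14 and 0.07 FPKM in Ctrl and 0.03, 0.03 and 0.15 FPKM in Akk. Chat, the defining cholinergic enzyme, was listed at 0 in Ctrl 1. The part of neighbouring brain tissue in these differences was not tested.

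In the pathways of neural signalling, no listed member was called. Of 75 neuroactive ligand and receptor genes, 6 were in the table (Adora3, Mc3r, Pomc, Gh, Prl and Prlr). Their summed FPKM was 3.11 to 19.68 in Ctrl and 3.9 to 2266 in Akk, the highest value being Akk 3. Pomc was the one member without overlap, and only narrowly, since Ctrl 1 reached 0.75 FPKM and Akk 1 stood at 0.76 FPKM. Of all 284 genes, 8.8% were higher in Akk without overlap. Of 48 genes of the cholinergic and dopaminergic synapse, Chat and the G protein subunit gene Gnb3 were present, and Gnb3 overlapped between groups (0.23, 0.04 and 0.07 FPKM in Ctrl, 0.07, 0.61 and 0.32 FPKM in Akk). None of 23 immediate-early genes, the markers of recent neuronal firing, was in the table.

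The genes lower in Akk without overlap mostly had a mean below 1 FPKM, as did most of the table, where 62 of 284 genes reached that mean. The largest Ctrl mean among these lower genes was 4.19 FPKM. Capn11 (NCBI gene 268958), a calpain protease known from testis, had 3.12, 7.02 and 2.44 FPKM in Ctrl and 0.44, 0.75 and 0.36 FPKM in Akk. It kept a negative log2 fold change in all 18 settings, from -3.09 to -1.68 (-2.70 without any alternative, SE 0.57, limma adjusted p = 0.120), and was not called in any. Tnfsfm13, a readthrough transcript of neighbouring TNF superfamily ligand genes, had 0.69, 0.89 and 0.65 FPKM in Ctrl and 0, 0 and 0.2 FPKM in Akk (log2 fold change -2.54, SE 0.54, limma adjusted p = 0.120). It overlaps those ligand genes, which were not analysed here, so its value is uncertain, and the part of shared reads was not tested.

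A further 8 genes were among the 10 smallest unadjusted p-values of their direction, and all 8 were below 1 FPKM in every library. In the higher direction, the extracellular matrix gene Emilin3 and the predicted gene Gm26650 were listed at 0 in all Ctrl libraries and reached 0.08 and 0.56 FPKM in Akk. Both were called with a pseudocount of 0.01 only. Gm31309 had 0.04, 0.08 and 0.04 FPKM in Ctrl and 0.2, 0.31 and 0.27 FPKM in Akk. In the lower direction, Dgat2l6, of the diacylglycerol acyltransferase family, had 0.96, 0.97 and 0.65 FPKM in Ctrl and 0.39, 0.29 and 0.41 FPKM in Akk, without overlap. The steroid dehydrogenase gene Hsd3b1, the olfactory receptor gene Olfr5, Gm10354 and Speer4a did not exceed 0.34 FPKM in any library. Adjusted p-values of these 8 genes ranged from 0.120 to 0.379 in limma.

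Genes of the immune lists had mostly negative log2 fold changes, and none was called. Ccl12, a monocyte-attracting chemokine, was the only one of 41 listed chemokine pathway genes in the table. It had 3.84, 1.81 and 1.14 FPKM in Ctrl and 1.08, 0.65 and 0.78 FPKM in Akk, so that the lowest Ctrl and the highest Akk value were 1.14 and 1.08 FPKM. Without Ctrl 1 and Akk 2 its log2 fold change went from -1.19 (adjusted p = 0.520 from limma) to -0.59. Of 22 markers of microglia and border macrophages, 4 were present and all 4 had a negative log2 fold change (median -0.86, against -0.11 for the whole table), with overlap between groups in each. H2-Ab1, an MHC class II chain of antigen-presenting cells, had 2.55, 2.35 and 0.66 FPKM in Ctrl and 0.47, 0.78 and 1.56 FPKM in Akk. Ms4a7, a marker of border-associated macrophages, had 0.84, 0.62 and 0.1 FPKM in Ctrl and 0.1, 0.15 and 0.21 FPKM in Akk. Cst7, a protease inhibitor of activated microglia, had 0.29, 0.88 and 0.87 FPKM in Ctrl and 0.14, 0.48 and 0.34 FPKM in Akk. For H2-Ab1 and Ms4a7, Ctrl 3 was as low as the Akk libraries. The list as a whole summed to 2.26 to 4.51 FPKM in Ctrl and 1.17 to 2.71 FPKM in Akk.

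Of 55 interferon-induced genes, Gbp4, Tgtp1 and Tgtp2 were listed, with summed values of 0.94 to 8.48 FPKM in Ctrl and 0.62 to 1.55 FPKM in Akk. Tgtp1 and Tgtp2 are near-identical GTPase genes, and their sum, 7.58, 1.32 and 0.53 FPKM in Ctrl and 0.35, 1.17 and 0.65 FPKM in Akk, was set apart by Ctrl 1 alone. Of single immune genes outside the lists, Klhl6, an adaptor gene of B cells and microglia, separated the groups, with 0.7, 0.97 and 1.05 FPKM in Ctrl and 0.28, 0.44 and 0.46 FPKM in Akk (log2 fold change -1.03, adjusted p = 0.399 from limma). Gimap3, a GTPase gene of lymphocytes, had 0.22, 0.38 and 0.46 FPKM in Ctrl and 0.11, 0.13 and 0.11 FPKM in Akk (log2 fold change -1.03, adjusted p = 0.357). The lymphocyte receptor genes Cd7 and Cd6 had positive log2 fold changes of 1.03 and 0.75, with overlapping groups and limma adjusted p of 0.462 and 0.696. Klhl6, Cd7 and Cd6 were chosen after their values were seen.

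The remaining lists, written by hand and not taken from the study, were thinly covered. The table also holds Wnt8b and the chemokine gene Ccl27b, which are in no list. Of 43 genes of NOD-like receptor signalling, Naip6, Casp4, Gbp4 and Mapk13 were present, 2 with a positive and 2 with a negative log2 fold change, and the groups overlapped in each. The inflammatory caspase gene Casp4 had 0.24, 0.19 and 0.06 FPKM in Ctrl and 0.25, 0.12 and 0.18 FPKM in Akk. Of 34 genes of TNF signalling, Ccl12 and Mapk13 were present, of 32 of mTOR signalling only Wnt6, and of 51 of antigen presentation H2-Ab1, H2-Q1 and H2-Q9. The single neutrophil and lymphocyte marker of 22, S100a8, had 0.39, 0.98 and 1.43 FPKM in Ctrl and 0.38, 0.36 and 1.64 FPKM in Akk. Of 28 genes of tryptophan and amino acid oxidation, Il4i1 alone was listed. No list had a called member other than Il4i1.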

How the data were processed

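Hippocampal RNA of 3 Ctrl and 3 Akk mice was sequenced by the authors on the BGISEQ-500 after TRIzol extraction, 1 library per mouse. The methods of the study name HISAT2, Bowtie2 and RSEM, whereas the submitters' processing notes name TopHat2, Cufflinks and GRCm38; which made the table is not settled. The authors deposited FPKM with 2 decimals for 284 selected genes. Depth is unknown, so counting error is too, and the number of mice limits precision. No enrichment was computed, since the table gives no background.

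Samples were grouped by their labels. From the deposited FPKM, log2(FPKM + 0.1) was fitted with limma 3.58.1 in R 4.3.3 with a variance trend, without scaling between libraries, over all 284 genes, and adjusted by Benjamini-Hochberg. Calls used the thresholds of the study, a 1.5-fold change and an adjusted p up to 0.05. The smallest p of an exact permutation test of 3 against 3 mice is 0.1. The fit was tested on simulated data with independent noise per gene, so library-wide differences such as those of the choroid plexus markers were not covered. Of the genes, 280 matched RefSeq by gene ID and 253 had a GENCODE transcript; transcripts were matched to each other with blastn 2.17.0. Lists were written by hand. The lists, genes and tests were chosen with earlier results of these data known. Genes were named by rule: called genes, the 10 with the smallest p and up to 5 with the largest change without overlap in each direction (mean FPKM of at least 1), the 5 with the highest FPKM in each library, list members, and Gm-numbered genes reaching that mean; others are marked. Alternatives were pseudocounts, a filter on mean FPKM, scalings, no trend, library weights, a replicate block, libraries left out, a choroid plexus covariate, other fold thresholds and, added after seeing the data, summed copies. Some results are not reported here.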

Additional observations from a re-analysis of the deposited data

How the results depend on the processing

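The comparison called 1 lower and 2 higher genes. No lower gene (0) and 1 higher gene were called with a pseudocount of 1, a mean FPKM of at least 1, median centring, quantile normalization and without Ctrl 1 and Akk 2, and 0 lower and 0 higher genes without Ctrl 1, Akk 2 and Akk 3. Without the variance trend 0 were lower, with a pseudocount of 0.01 4 were higher, and with the copies summed 1 was higher. Leaving out 1 library gave 0 to 1 lower and 1 to 3 higher genes. Without Ctrl 1, Akk 2 and Akk 3, the lone Akk library is assumed to vary like the Ctrl libraries. Library weights and both other fold change thresholds left the counts within 1.5 times, and Gm14434, listed singly, was called in all settings but the replicate block and the fit without 3 libraries.

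Genes without overlap, 20 lower and 25 higher, numbered 3 and 5 at a mean FPKM of at least 1, 50 and 54 without Ctrl 1 and Akk 2, and 90 and 91 without Ctrl 1, Akk 2 and Akk 3, where overlap is rarer because fewer libraries remain. Leaving out 1 library gave 28 to 39 lower and 29 to 46 higher, with 39 without Ctrl 3 and 46 without Ctrl 1. The replicate numbers belong to different mice, and deviations of same-numbered libraries correlated at -0.28, -0.33 and 0.14 across genes, so they do not pair. The fit with the replicate block called 0 lower and 0 higher genes (lowest limma adjusted p 0.152; 24 genes under 0.05 unadjusted).

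Single-gene values under alternatives covered 39 chosen genes, most of them not called, and do not describe the other genes. Of these 636 values, 606 kept direction and side of the threshold. Another 3 turned, all without Ctrl 1, Akk 2 and Akk 3: LOC102639653 (1.57), Prl (-1.29) and Gh (-0.45). The cause was not tested. Of 154 list medians under alternatives, 148 kept their sign. Centring moved the median of the table from -0.11 to -0.21.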

Other observations

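A few genes were listed in 1 library only or had the same values as another gene, and were chosen after their values were seen. Dynlt1c, a dynein light chain gene, was at 3.99 FPKM in Akk 3 and listed at 0 in the other 5 libraries, and Tcte3 was at 1.49 FPKM in Akk 1 and listed at 0 elsewhere. Tcte3 has a near-identical neighbour, Gm3448, and their sum was 0.81, 0.67 and 0.54 FPKM in Ctrl against 1.79, 1.63 and 0.89 FPKM in Akk, without overlap. LOC100862456 and LOC102641086 had identical values in every library (5.01, 0 and 2.33 FPKM in Ctrl, 4.28, 6.02 and 2.13 FPKM in Akk). Of the 284 genes, 3 were listed at 0 in every library. Blood was sequenced from the same mice, and 65 genes were listed for both tissues.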
